A study of Mus musculus with 54 samples.

Results

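Dentate granule neurons are the principal cells of the dentate gyrus (DG), the part of the hippocampus that receives its main cortical input from the entorhinal cortex. The genes described here are 9 that mark these neurons or are high in the DG: Prox1, C1ql2, Calb1, Dsp, Pkp2, Olfml2b, Plekha2, Pcdh20 and Tnfrsf25. They were chosen on earlier knowledge of these data, in which several had their highest intensities in the DG, and were taken by gene symbol from the platform annotation of an Illumina MouseRef-8 beadchip, where 8 of the 9 had a named probe, with 12 probes in all out of 23978 named probes for 16590 genes. Dsp, which encodes desmoplakin, had none and has no value here.

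The arrays came from mice that the paper describes as male C57BL/6J, housed singly, and 1 month old at the start. Their labels give 7, 14 or 28 days. The paper describes daily injections into the peritoneum for experiments of up to 14 days. It does not describe the 28-day groups, so their strain, sex, age and housing, and whether those mice were injected, are not stated there. ACR mice received AICAR, an agonist of the energy sensor AMPK, at 500 mg/kg/day in saline. In the experiments described, RUN mice received saline and had free use of a running wheel, and CTR mice received saline alone. Controls there share the injections with both treatments. The DG and the lateral entorhinal cortex (LEC) were dissected as bulk tissue, which holds glia, vessels and other neurons beside granule cells. In each tissue the groups were ACR7 and RUN7 with their shared control CTR7, RUN14 with the first 14-day control set CTR14a, ACR14 with the second 14-day control set CTR14b, and RUN28 with CTR28. Each group had 3 arrays per tissue, except that DG CTR14a had 2 and LEC CTR28 had 4, giving 26 DG and 28 LEC arrays from 33 mice, of which 21 contributed both tissues.

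Granule neurons are born throughout life from precursors below the granule cell layer, and running is known to raise their production in rodents. Prox1, a homeodomain transcription factor, directs newborn cells to the granule neuron fate and maintains it. Mature granule cells carry the calcium-binding protein calbindin (Calb1) and send mossy fibre axons to area CA3, where the secreted protein C1ql2 gathers glutamate receptors at the synapse. The remaining genes encode junction and adhesion proteins (Dsp, Pkp2, Pcdh20), a secreted olfactomedin-domain protein (Olfml2b), a lipid-binding adaptor (Plekha2) and a death-domain receptor (Tnfrsf25).

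RefSeq gives promoter windows for 6 of the 9 genes. The 250 bases upstream of the start site on build GRCm38.p6 are shown for 4 of them, namely for C1ql2 and Prox1, which differed most between the tissues, and for Olfml2b and Tnfrsf25, on which the treatment and age results below turn. Capitals mark E-boxes, CANNTG, the motif bound by basic helix-loop-helix factors such as the neurogenic NeuroD family; letters run 5′ to 3′ on the strand of the gene.
C1ql2, chr1:120340332-120340581, + strand: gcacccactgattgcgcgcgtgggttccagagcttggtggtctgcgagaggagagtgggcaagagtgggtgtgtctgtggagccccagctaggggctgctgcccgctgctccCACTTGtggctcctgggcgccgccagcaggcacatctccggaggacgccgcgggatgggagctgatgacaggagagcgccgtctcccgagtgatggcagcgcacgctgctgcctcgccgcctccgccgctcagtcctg
Prox1, second start site, chr1:190170828-190171077, - strand: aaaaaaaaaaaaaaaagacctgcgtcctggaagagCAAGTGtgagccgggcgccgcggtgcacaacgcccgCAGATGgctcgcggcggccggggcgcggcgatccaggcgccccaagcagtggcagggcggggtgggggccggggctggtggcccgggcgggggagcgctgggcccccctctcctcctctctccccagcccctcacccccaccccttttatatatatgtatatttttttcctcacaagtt
Olfml2b, chr1:170644282-170644531, + strand: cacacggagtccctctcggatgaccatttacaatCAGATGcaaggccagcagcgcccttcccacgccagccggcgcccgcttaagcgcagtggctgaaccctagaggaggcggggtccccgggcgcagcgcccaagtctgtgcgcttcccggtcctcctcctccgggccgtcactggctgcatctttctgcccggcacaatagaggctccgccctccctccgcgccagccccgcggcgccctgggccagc
Tnfrsf25, first start site, chr4:152115684-152115933, + strand: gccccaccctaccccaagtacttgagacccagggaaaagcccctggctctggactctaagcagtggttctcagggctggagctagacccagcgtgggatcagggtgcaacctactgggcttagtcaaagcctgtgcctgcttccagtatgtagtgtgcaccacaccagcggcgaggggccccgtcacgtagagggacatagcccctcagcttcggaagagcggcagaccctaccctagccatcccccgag
The C1ql2 window holds 1 E-box, that of Prox1 holds 2 and that of Olfml2b holds 1, whereas the Tnfrsf25 window holds 0. One form of the E-box, CAGATG, occurs once in the Prox1 window and once in the Olfml2b window. Among 32851 promoter windows of the same length, 66.2% hold a CANNTG and 14.4% hold a CAGATG on either strand, so a match is common and is given as a description only. The first Prox1 window and the second Tnfrsf25 window, which are not shown, hold 0 E-boxes, at 56% and 66.4% G and C. The windows shown are rich in G and C, at 68.8% for C1ql2, 64.8% for Prox1, 69.6% for Olfml2b and 61.6% for Tnfrsf25, against a median of 52.4% over all windows. A cyclic AMP response element, TGACGTCA, which 1.55% of all windows hold, had 0 matches in any of the windows of the 6 genes.

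Levels below are log2 intensities scaled to a common mean and SD over the 54 arrays, so that a difference of 1 is a 2-fold difference on the scaled values. Folds of the deposited intensities can differ, since array SDs ran from 1.5719 to 2.1388. A probe counts as detected at a detection p-value of 0.02 or less, and a level belongs to its own probe and cannot be set against that of another probe. For 7 genes a probe passed this limit on every array of 1 or more groups, in the DG and in the LEC alike. The exception was Calb1, whose single probe was detected on 0 of 26 DG arrays and 0 of 28 LEC arrays. Its level ran between 5.32 and 5.83 in the DG and between 5.50 and 5.91 in the LEC, and no comparison of calbindin was made. A second Tnfrsf25 probe was likewise detected on 0 arrays of either tissue and is not used. Tnfrsf25 is therefore carried by 1 probe, Prox1 by 2 and Pkp2 by 3.

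Since DG intensities entered the choice of genes, their differences between the tissues are a description. In untreated mice the 7 measured genes held the 7 highest differences of DG minus LEC among 9023 genes. C1ql2 led with a mean level of 12.91 in the DG and 8.0 in the LEC, a difference of 4.90 or 29.95-fold. Prox1 followed with 10.26 in the DG and 7.10 in the LEC, a difference of 3.15 or 8.89-fold. Its second probe was detected on 25 of 26 DG arrays and 0 of 28 LEC arrays, and its level was at least 2.95-fold higher in the DG.

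The other differences were 2.84 for Olfml2b, 2.66 for Pkp2, 2.37 for Plekha2, 2.37 for Tnfrsf25 and 2.32 for Pcdh20, and the genes that came next in order were Iqgap2 at 2.28 and Il20rb at 2.22. The median was 2.66 for the 7 genes and close to 0 for all genes. Each of the 7 was higher in the DG in 21 of the 21 mice that gave both tissues. The separation was widest for C1ql2, whose lowest DG array stood at 11.36 and highest LEC array at 9.12. It was narrowest for Plekha2, at 9.43 and 9.41, and the tissues overlapped for Tnfrsf25, at 7.48 for the lowest DG array and 7.72 for the highest LEC array. All 3 of these lowest DG values came from the same array, ACR14 replicate 3.

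**Figure D1:**
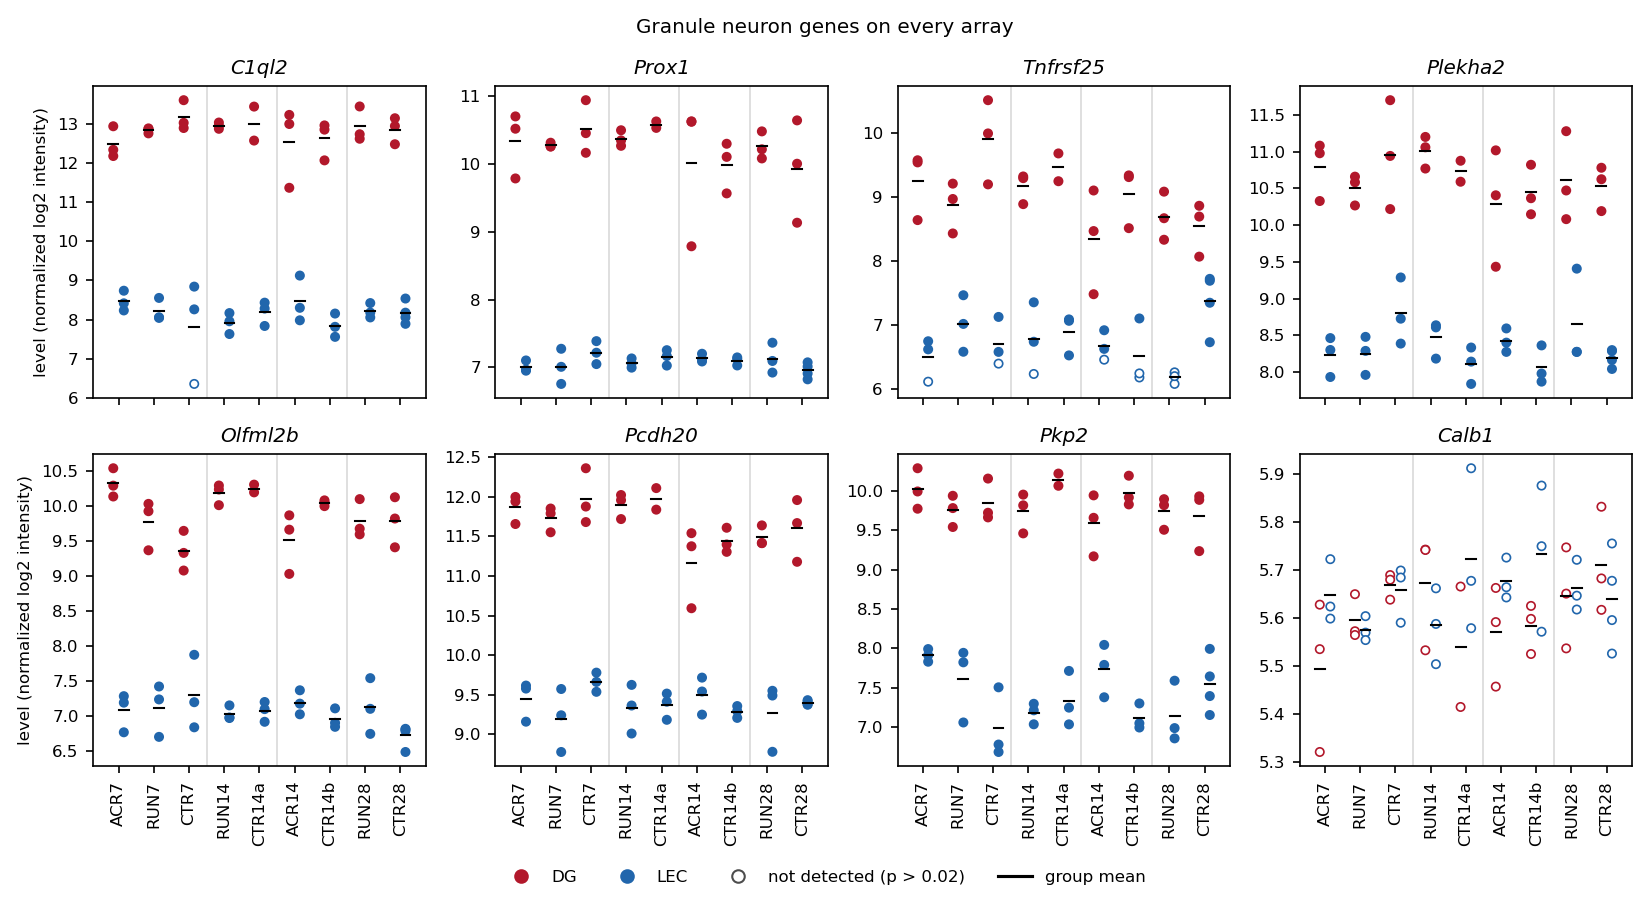
Levels (log2 units, vertical axis) of 8 genes on each array by group, with DG arrays in red just left of LEC arrays in blue within each group. Open circles mark arrays where the probe was not detected and lines are group means. Calb1 is open on every array, and C1ql2 stands apart between the tissues, with 11.36 on its lowest DG array and 9.12 on its highest LEC array.

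ACR14 replicate 3 had the lowest level of all 26 DG arrays for each of the 7 genes. There C1ql2 was at 11.36, Prox1 at 8.79 and Tnfrsf25 at 7.48, while the other 2 ACR14 arrays were at 13.22 and 12.99 for C1ql2, 10.63 and 10.62 for Prox1, and 9.10 and 8.47 for Tnfrsf25. Averaged over the genes, this array lay 0.80 below the mean of its group. It was also 1 of 3 DG arrays with high levels of choroid plexus genes, the epithelium that makes cerebrospinal fluid and borders the hippocampus. On these 3 arrays, ACR7 replicate 2, CTR14b replicate 5 and ACR14 replicate 3, all 10 measured genes of a 12-gene choroid plexus list were detected and averaged 9.58, 11.2 and 9.71, against 6.17 to 7.38 on the other DG arrays. Ttr, transthyretin, the defining product of that epithelium, stood at 14.01, 13.91 and 13.69 on them. The 7 genes lay 0.35 below the group mean on ACR7 replicate 2 but 0.16 above it on CTR14b replicate 5. The 3 arrays were left out only in the DG comparisons that hold 1 or more of them, where 0 calls stood with and without them. The other DG comparisons, among them RUN7 and CTR28 against CTR7, were not refitted without them. Where leaving them out turned the direction or moved a DG difference named below by over 1.5 times, the value without them is given. The part of choroid plexus tissue in the low levels was not tested. In bulk tissue, fewer granule cells in a dissection and less RNA per granule cell cannot be told apart.

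Across the series, arrays detected 11495 to 13219 probes and arrays of 1 group correlated at 0.9751 to 0.9956. Treatment and control groups were compared within each tissue by limma's moderated test over 8756 DG genes and 8544 LEC genes, with calls made where the adjusted p was under 0.05. Groups of 2 to 4 arrays limit how precise each value is.

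After 7 days of AICAR 0 of the 7 genes were called in the DG by this test. The same comparison called 0% of all genes tested, and 1264 of 8756 had an unadjusted p under 0.05, as did 1 of the 7. That gene was Olfml2b, a secreted protein that binds extracellular matrix sugars. Its level was 10.29, 10.13 and 10.53 in ACR7 mice and 9.33, 9.08 and 9.64 in CTR7 mice. All ACR7 arrays lay above all CTR7 arrays, and the means were 10.32 ± 0.20 in ACR7 and 9.35 ± 0.28 in CTR7 (SD, n = 3 each). The difference of 0.97, or 1.96-fold (SE 0.21, 95% confidence interval 0.53 to 1.41), had the smallest adjusted p that any gene reached in this comparison, 0.0729 from limma, which misses the threshold. Without the 3 arrays rich in choroid plexus genes the difference was 1.06 (adjusted p = 0.159). The z-ratio selection that the study's methods describe picked Olfml2b, with a z-ratio of 4.52, and 1 probe of Pkp2, with 1.80, among 754 of 25697 probes.

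Olfml2b did not keep this direction at 14 days. It stood at 9.86, 9.66 and 9.03 in ACR14 mice and at 10.08, 10.05 and 9.99 in CTR14b mice. The groups again did not overlap, but now with ACR14 below its controls, by 0.52 (SE 0.21, adjusted p = 0.999). Without the choroid-rich arrays the difference was -0.27. Running gave Olfml2b levels of 9.36, 9.92 and 10.03 in RUN7 mice, which overlapped those of CTR7 (difference 0.42, adjusted p = 0.246). CTR7 was the group with the lowest Olfml2b mean of the 9 DG groups, 9.35, and ACR7 the one with the highest, 10.32.

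**Figure D2:**
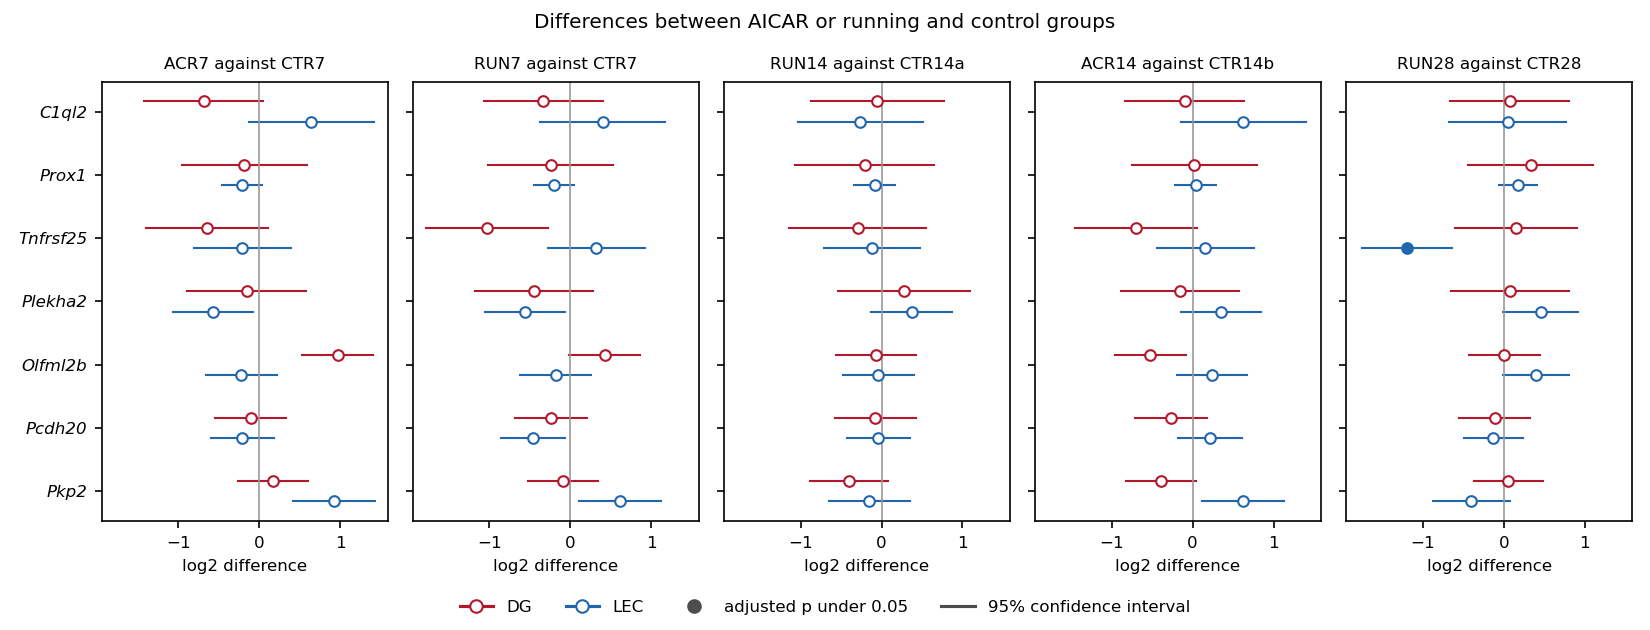
Differences in level (log2 units, horizontal axis) of each gene for the 5 treatment comparisons, treatment minus its own control, in DG and LEC, with 95% confidence intervals. A filled point marks an adjusted p under 0.05, which only Tnfrsf25 in LEC RUN28 against CTR28 has, at -1.19.

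C1ql2, which gathers kainate-type glutamate receptors at mossy fibre synapses, had levels of 12.93, 12.33 and 12.17 in DG of ACR7 mice and of 13.60, 12.89 and 13.02 in CTR7 mice. The groups overlapped, and the difference of -0.69 (SE 0.36) did not pass (adjusted p = 0.376). Its RUN7 levels of 12.86, 12.88 and 12.75 were all below those of CTR7 (difference -0.34, adjusted p = 0.615). In the other DG groups C1ql2 means lay between the 12.48 of ACR7 and the 13.17 of CTR7. In the LEC the 7-day comparison of C1ql2 leans on 1 control array, since CTR7 replicate 2 had a level of 6.36, the only LEC array of 28 where it was not detected, beside 8.84 and 8.26 on the other CTR7 arrays.

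Prox1 showed no called treatment difference in the DG. Its levels were 10.70, 9.79 and 10.52 in ACR7, 10.31, 10.26 and 10.26 in RUN7, and 10.94, 10.17 and 10.46 in CTR7 mice. These groups overlapped, with differences of -0.18 for ACR7 and -0.24 for RUN7 against CTR7 (adjusted p = 0.868 and 0.742). The ACR7 difference turns on its choroid-rich array, replicate 2 at 9.79, and was 0.09 without the 3 such arrays (adjusted p = 0.915). Over the 7 genes the ACR7 differences had a median of -0.16 with 5 negative, against 0.08 with 3 negative without those arrays. Over all 9 DG groups the Prox1 means spanned 0.65, with CTR28 lowest at 9.93 and CTR14a highest at 10.58. Without the choroid-rich arrays ACR14 was highest at 10.63, and its difference from CTR14b was 0.79, in place of 0.02 (adjusted p = 1 and 0.999).

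The second Prox1 probe spread further between the groups. It had levels of 7.45, 7.51 and 7.13 in CTR14b mice and of 8.84 and 8.95 in CTR14a mice, both untreated for the same number of days. The sets did not overlap and differed by -1.53 (SE 0.39, adjusted p = 0.0757 over all probes), while the main probe gave -0.59 (adjusted p = 0.469). The probe was also lower in CTR28 at 7.62, 7.79 and 6.83 than in CTR7 at 9.25, 8.29 and 8.14. There the difference of -1.15 (SE 0.35) passed over all probes (adjusted p = 0.0314), whereas that of the main probe, -0.59, did not (adjusted p = 0.317). Both probes varied together within groups, with a Pearson r of 0.895 over 26 arrays. Which transcripts of Prox1 each probe reads was not examined here.

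**Figure D3:**
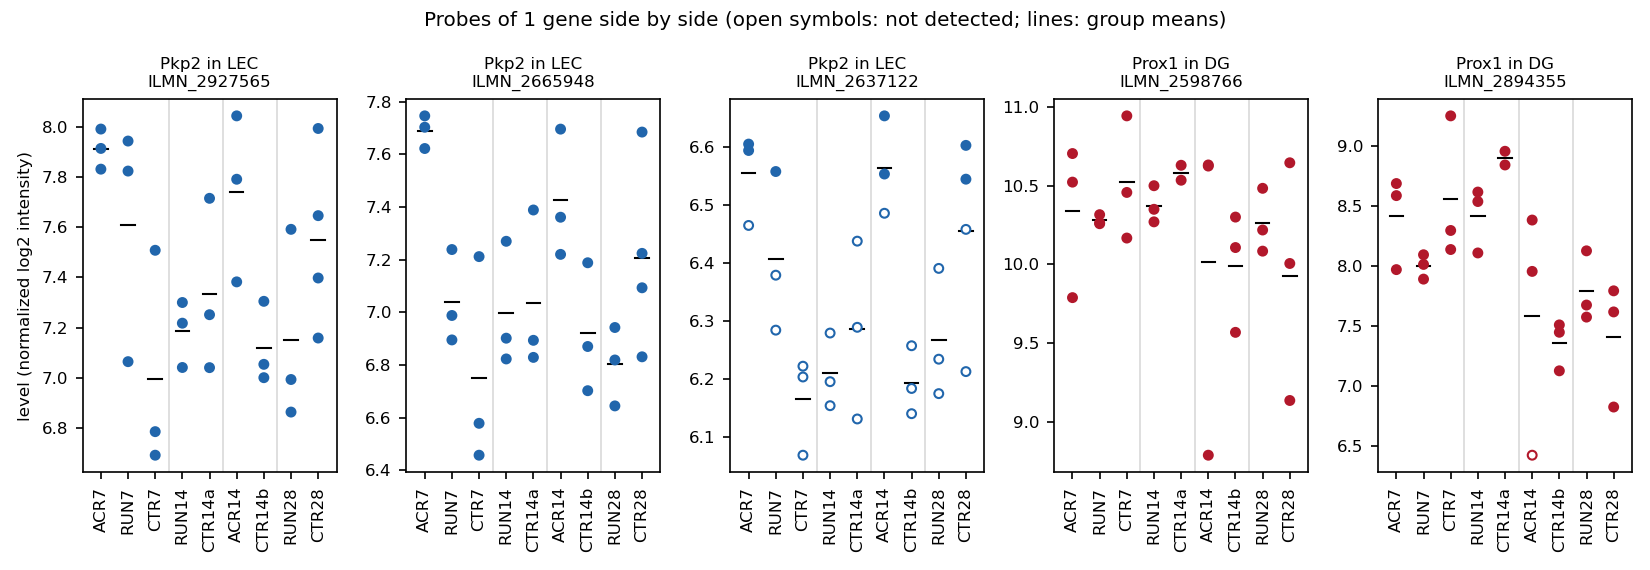
Levels (log2 units, vertical axis) of the 3 Pkp2 probes on each LEC array and of the 2 Prox1 probes on each DG array, by group. Open circles are arrays where the probe was not detected. The second Prox1 probe is at 7.13 to 7.51 in CTR14b and at 8.84 and 8.95 in CTR14a, and the Pkp2 probes are above their controls in LEC of ACR7 and ACR14 mice.

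Pkp2, plakophilin 2, links cadherins of desmosomes to the cytoskeleton and is best known from heart muscle. In the LEC its level was 7.99, 7.83 and 7.92 in ACR7 mice and 6.69, 6.78 and 7.51 in CTR7 mice. Every ACR7 array lay above every CTR7 array, and the difference of 0.92, or 1.89-fold (SE 0.25, 95% confidence interval 0.41 to 1.42), had an adjusted p of 0.0508. After 7 days of AICAR 0 of the 7 genes were thus called in the LEC, against 1.44% of all genes tested. An unadjusted p under 0.05 was found for 2 of the 7 and 1379 of all genes. The selection of the methods picked Pkp2 there, on 2 probes. Of the other lists, Clic6 of the choroid plexus list rose by 1.51 in this comparison (adjusted p = 0.0225) and Vip of interneurons fell by 0.63 (adjusted p = 0.0277), and their part in the Pkp2 difference was not tested.

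The other Pkp2 probes were read on their own. The second was at 7.62, 7.70 and 7.75 in ACR7 and at 6.46, 6.58 and 7.21 in CTR7, and its difference of 0.94 (SE 0.20) passed over all probes (adjusted p = 0.0233). The third, detected on 7 of 28 LEC arrays, was at 6.59, 6.60 and 6.46 in ACR7 and at 6.07, 6.22 and 6.20 in CTR7, and was not tested. All 3 probes were thus without overlap in the same direction, but they read 1 gene on the same arrays and are not separate observations. Within LEC groups the main and second probes had a Pearson r of 0.792 over 28 arrays. The share of all probes without overlap was not counted. Leaving out CTR7 replicate 3, the highest control array, made the difference of the main probe 1.18 (adjusted p = 0.00629), and quantile normalization gave 0.90 (adjusted p = 0.0336). Over the 6 fits that leave out 1 array the difference ran from 0.77 to 1.18. Their adjusted p ran from 0.00629 to 0.285, and 1 of the 6 passed.

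After 14 days of AICAR the LEC levels of Pkp2 were 7.79, 7.38 and 8.05 in ACR14 and 7.00, 7.05 and 7.30 in CTR14b mice. The arrays did not overlap, and the difference was 0.62 (SE 0.25, adjusted p = 0.28). In RUN7 mice the levels of 7.94, 7.06 and 7.83 overlapped those of CTR7, with a difference of 0.62 (adjusted p = 0.196, or 0.87 and 0.0459 without CTR7 replicate 3). The 6 fits that leave out 1 array gave 0.45 to 0.89, with adjusted p up to 0.549, and 1 of them passed. Here RUN7 and ACR7 were set against the same 3 control arrays. In LEC of RUN14 and RUN28 mice the differences were -0.15 and -0.40 (adjusted p = 0.88 and 0.243). The DG gave Pkp2 differences of 0.17 in ACR7 and -0.39 in ACR14 (adjusted p = 0.755 and 0.999), or 0.29 and -0.25 without the choroid-rich arrays (adjusted p = 0.533 and 1).

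At 14 days 0 of the 7 genes were called after AICAR in the DG or the LEC, and 0 after running in either tissue, and each of these 4 comparisons called 0% of all genes tested. An unadjusted p under 0.05 was found in the DG for 360 genes in ACR14 and 594 in RUN14, with 1 and 0 of the 7 among them. In the LEC these numbers were 1224 in ACR14 and 748 in RUN14, again with 1 and 0 of the 7. The selection of the methods picked Pkp2 in LEC of ACR14 mice on 2 probes and the second probe of Prox1 in DG of RUN14 mice. For that Prox1 probe the levels were 8.61, 8.11 and 8.54 in RUN14 and 8.84 and 8.95 in CTR14a mice. Every RUN14 array of this probe lay above the CTR14b arrays, at 7.13 to 7.51, so its direction depends on which control set is used. In LEC of ACR14 mice the differences of all 7 genes were positive, at a median of 0.24, and in the DG 6 of 7 were negative, at a median of -0.27. The median over all genes was 0.02 and 0.01 in those comparisons. The DG balance rests on ACR14 replicate 3, without which 3 of 7 were negative and the median was 0.02, the same as over all genes. Without all 3 choroid-rich arrays C1ql2 was 0.65 higher in ACR14 than in CTR14b, in place of -0.10 (adjusted p = 1 and 0.999).

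Running for 7 days called 0 of the 7 genes in the DG, against 3.63% of all genes, and 0 of the 7 in the LEC, against 0.971%. An unadjusted p under 0.05 was reached by 1 of the 7 in the DG and 3 of the 7 in the LEC, against 1931 of all DG genes and 1453 of all LEC genes, and the selection of the methods picked none of the 7. The DG gene was Tnfrsf25, death receptor 3, which binds the cytokine TL1A and signals through the adaptor TRADD. Its levels were 8.43, 9.21 and 8.97 in RUN7 and 10.00, 9.20 and 10.52 in CTR7 mice. The groups overlapped by 1 array each, and the difference of -1.03, or 2.05-fold lower (SE 0.36), had an adjusted p of 0.101. Without CTR7 replicate 2, the lowest control, it was -1.38 (adjusted p = 0.031). Over the 6 fits that leave out 1 array it ran from -1.38 to -0.73, with adjusted p from 0.031 to 0.428, and 1 fit passed. Etv1 of the cortical list rose by 1.26 in this comparison (adjusted p = 0.0305) and Slco1a4, an endothelial transporter, by 0.63 (adjusted p = 0.045). Of the genes tested, 4 of 7 on the cortical list and 5 of 5 on the endothelial list were positive. The 3 LEC genes were Pkp2, given above, Plekha2 with a difference of -0.56 and Pcdh20 with -0.46 (adjusted p = 0.231 and 0.21). Endothelial Flt1 and Slco1a4 rose there by 1.31 and 0.79 (adjusted p = 0.0103 each), and were lower in LEC of ACR7 than of RUN7 mice by 1.74 and 0.91, as was Esam by 0.91 (adjusted p = 0.000334, 0.00111 and 0.0448).

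Tnfrsf25 was the gene of the 7 with the widest range of group means in the DG, 1.55, with CTR7 highest at 9.90 and ACR14 lowest at 8.35. ACR7 arrays stood at 9.58, 8.64 and 9.54, a difference of -0.65 from CTR7 (adjusted p = 0.417). ACR14 arrays stood at 9.10, 8.47 and 7.48 and CTR14b arrays at 9.31, 9.34 and 8.52, a difference of -0.70 (adjusted p = 0.999). Without the choroid-rich arrays these differences were -0.34 in ACR7 (adjusted p = 0.661) and -0.13 in ACR14 (adjusted p = 1). Leaving out ACR14 replicate 3 alone gave -0.27 for ACR14 (adjusted p = 1), and CTR28 was then the lowest of the 9 means at 8.54, below ACR14 at 8.79. With all arrays, neighbours in the order of group means differed by less than the spread of arrays within groups (SD 0.51).

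Running for 28 days called 1 of the 7 genes in the LEC, against 15% of all genes tested, and 0 of the 7 in the DG, against 0.251%. The LEC gene was Tnfrsf25. Its levels were 6.26, 6.08 and 6.20 in RUN28 mice, none of them detected, and 7.69, 7.72, 6.73 and 7.35 in CTR28 mice, all detected. The groups did not overlap, and the measured means were 6.18 ± 0.09 in RUN28 (SD, n = 3) and 7.38 ± 0.46 in CTR28 (SD, n = 4). Tnfrsf25 fell in RUN28 by 1.19 on the log2 scale (SE 0.27, adjusted p = 0.00605). Because the RUN28 arrays give only an upper bound, CTR28 was at least 1.78-fold higher than RUN28, taking for each RUN28 array its lowest detected level as the floor. Leaving out each of the 7 arrays in turn gave differences between -1.41 and -1.08 with adjusted p between 0.00169 and 0.0353. The call ends with the replicate number as a block (-1.20, adjusted p = 0.0507), and at a detection limit of 0.01 the gene is not tested.

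The CTR28 mean of 7.38 was the highest Tnfrsf25 mean of the 9 LEC groups and the RUN28 mean of 6.18 the lowest, and CTR28 stood 0.67 above CTR7 (adjusted p = 0.0888), in a comparison that uses the same CTR28 arrays. Markers of other cells differed in this LEC comparison as well. Oligodendrocyte genes, 5 measured of a list of 6, averaged 11.25 to 11.91 in RUN28 and 10.71 to 10.93 in CTR28, and 8 of 8 interneuron genes averaged 10.10 to 10.45 in RUN28 and 9.87 to 9.91 in CTR28. Pvalb, parvalbumin, rose to a mean of 11.64 in RUN28, against 10.05 in CTR28 (adjusted p = 0.00595), Mog, a myelin protein, rose by 1.08 (adjusted p = 0.0193), and Npy, neuropeptide Y of interneurons, rose by 0.60 (adjusted p = 0.047). Of the list for CA pyramidal neurons, Wfs1, also a marker of superficial entorhinal neurons, fell by 0.94 (adjusted p = 0.0362) and Bok rose by 0.55 (adjusted p = 0.0417). Flt1, a receptor of vessel endothelium, fell by 0.69 (adjusted p = 0.0356). The thalamus list averaged 7.38 to 8.63 in RUN28 and 7.44 to 7.74 in CTR28, and arrays of the other LEC groups reached at most 7.85. Calb2, calretinin, was at 12.39 on RUN28 replicate 3, against 11.36 and 10.37 on the other RUN28 arrays. That array also had the lowest Wfs1 level of its group, 9.29. The part of these markers in the Tnfrsf25 difference was not tested. Of 6 genes of Tnfrsf25 signalling, its ligand and intracellular partners, 4 had a probe and 2 were tested in the LEC, and 0 were called in any of the 8 LEC comparisons. In the DG 3 were tested and 0 called.

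In the DG of RUN28 mice the 7 genes differed from CTR28 by -0.11 to 0.33, with a median of 0.08 and 0.05 over all genes, and 0 of them had an unadjusted p under 0.05, against 1038 of all genes. Tnfrsf25 was at 8.33, 9.09 and 8.67 in RUN28 and at 8.70, 8.87 and 8.07 in CTR28 mice. These overlapped, with a difference of 0.15 (adjusted p = 0.889).

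The untreated groups CTR28 and CTR7 differed in labelled days and, if they started at the same age, in age at the end. If CTR28 mice were injected, they also differed in the number of injections. CTR28 was set against CTR7 on those terms, which cannot be told apart from any other difference between the sets. In the DG 1 of the 7 genes was called, against 11.1% of all genes tested. Tnfrsf25 was at 8.70, 8.87 and 8.07 in CTR28 and at 10.00, 9.20 and 10.52 in CTR7 mice. The groups did not overlap, and it fell in CTR28 by 1.36 (SE 0.36, adjusted p = 0.0194, n = 3 each). The call ends without CTR7 replicate 1 (adjusted p = 0.0562), CTR7 replicate 3 (0.132) or CTR28 replicate 3 (0.0835), and with only these 2 groups in the fit (0.109). This comparison shares its CTR7 arrays with those of ACR7 and RUN7. Beside it, 6 of the 7 genes were negative, at a median of -0.37 against -0.01 for all genes. Olfml2b was the exception, with a difference of 0.43 (adjusted p = 0.193).

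Of 7 genes listed for newborn granule cells 3 were tested in the DG, and 1 of them, Dcx, doublecortin of migrating young neurons, fell in CTR28 by 0.78 (adjusted p = 0.0314). Among 7 genes for partners of C1ql2 and its relatives, 5 were tested and 1 fell, namely Grik4, a kainate receptor subunit of mossy fibre synapses, by 0.64 (adjusted p = 0.0385). Of 12 other granule cell and mossy fibre genes, 4 were tested and 0 called, at a median of -0.23. Of 6 astrocyte genes, Gfap rose by 1.41 (adjusted p = 0.00855), and the list averaged 10.71 to 11.29 in CTR28 and 10.49 to 10.74 in CTR7. Oligodendrocyte genes averaged 10.37 to 11.49 in CTR28 and 10.06 to 10.75 in CTR7. Etv1, from a list for cortical layers, rose by 1.52 (adjusted p = 0.00517) and Pde10a, from a list for striatum, fell by 0.65 (adjusted p = 0.0489). Both lists were split, with 4 of 7 cortical layer genes and 3 of 5 striatum genes positive, at medians of 0.21 and 0.03. The part of cell makeup in the Tnfrsf25 difference was not tested.

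In the LEC CTR28 against CTR7 called 1 of the 7 genes, against 16.3% of all genes tested. Olfml2b was at 6.79, 6.81, 6.49 and 6.82 in CTR28 and at 7.88, 6.84 and 7.20 in CTR7 mice. The lowest CTR7 array was 6.84 and the highest CTR28 array 6.82, so the groups did not overlap by a narrow margin. It fell in CTR28 by 0.58 (SE 0.20, adjusted p = 0.0466), a call that holds in 1 of the 7 fits that leave out an array. The difference ranged from -0.81 without CTR7 replicate 2 to -0.29 without CTR7 replicate 1, with adjusted p between 0.0121 and 0.389. Leaving out 1 array also let other genes pass, namely Pkp2 (0.81) and Plekha2 (-0.81) without CTR7 replicate 3, and Tnfrsf25 without CTR7 replicate 2 (0.89) or CTR28 replicate 3 (0.89). Over the 7 such fits adjusted p reached 0.373 for Pkp2, 0.318 for Plekha2 and 0.26 for Tnfrsf25. Of 13 genes for desmosomes and adherens junctions, the partners of Pkp2 and Dsp, 4 were tested in the LEC. Ctnnb1, beta-catenin, rose there by 0.34 (adjusted p = 0.0206) and Cdh2, N-cadherin, by 0.50 (adjusted p = 0.0239). In the DG 5 were tested and 0 called in any of the 8 comparisons. Nrxn3, a presynaptic partner of C1q-like proteins, fell in LEC of CTR28 mice by 0.48 (adjusted p = 0.0266).

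Markers of other cells differed in the same LEC comparison, where 7 list genes outside the members rose in CTR28 and 9 fell. Of the interneuron list, averaging 9.87 to 9.91 in CTR28 and 9.96 to 10.30 in CTR7, Pvalb fell by 1.86 (adjusted p = 0.00136), Npy by 0.60 (adjusted p = 0.0426) and Vip by 0.42 (adjusted p = 0.0342). Mog fell by 0.95 (adjusted p = 0.0327), with the oligodendrocyte list at 10.71 to 10.93 in CTR28 and 11.04 to 11.57 in CTR7. The cortical layer genes Rorb, Cux2 and Tle4 fell by 0.76, 0.79 and 0.55, and Dcx fell by 0.49. Those that rose were Flt1 by 1.02 and Slco1a4 by 0.44, both endothelial, Wfs1 by 1.11, Calb2, the calcium-binding protein calretinin, by 1.00, and Clic6 of the choroid plexus list by 0.92, beside Ctnnb1 and Cdh2, with Nrxn3 among those that fell. Their part in the Olfml2b difference was not tested.

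The 14-day control sets, CTR14b and CTR14a, differed by 0 calls among the 7 genes in either tissue, against 0.126% of all genes in the DG and 0% in the LEC, while the unadjusted p was under 0.05 for 1564 genes in the DG and 615 in the LEC. Of the 7, this held for 1 in the DG and 0 in the LEC. All 7 differences were negative in both tissues, at a median of -0.38 in the DG and -0.12 in the LEC. The median over all genes was -0.01 in the DG and 0.01 in the LEC. The 7 genes varied together within DG groups, and DG CTR14a has 2 arrays, so the DG signs are not separate observations. The DG differences ran from -0.59 for Prox1 to -0.16 for Pkp2, or from -0.75 to -0.09 for the same genes without the choroid-rich arrays. Pcdh20, a protocadherin of the cell surface, had the smallest adjusted p, 0.242, at 11.61, 11.40 and 11.31 in CTR14b and 11.84 and 12.11 in CTR14a mice.

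ACR7 was also set against RUN7 directly. In the DG 0 of the 7 genes were called, against 0% of all genes and 679 genes at an unadjusted p under 0.05, and in the LEC 0, against 0.152%, with 1 and 0 of the 7 unadjusted. Olfml2b had the largest DG difference, 0.55, with no overlap between 10.29, 10.13 and 10.53 in ACR7 and 9.36, 9.92 and 10.03 in RUN7 (adjusted p = 0.604). The second Pkp2 probe also did not overlap in the LEC, at 7.62, 7.70 and 7.75 in ACR7 and 6.99, 6.89 and 7.24 in RUN7, a difference of 0.65 (adjusted p = 0.579).

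Whether a treatment effect differed between the tissues was tested in 1 joint model of the 54 arrays, with mice as random blocks. This called 0 of the 7 genes for ACR7, where it called 0.233% of 9023 genes, 0 for RUN7 (2.5%), 0 for ACR14 (0%), 0 for RUN14 (0%) and 0 for RUN28 (4.17%). The unadjusted p was under 0.05 for 3, 2, 2, 0 and 1 of the 7 genes in these tests, and for 1555, 1767, 531, 164 and 1899 of all genes. For Olfml2b the ACR7 effect was 1.20 higher in the DG than in the LEC (SE 0.32, adjusted p = 0.0747). For Tnfrsf25 the RUN28 effect was 1.35 higher in the DG than in the LEC (SE 0.48, adjusted p = 0.0915) and the RUN7 effect 1.36 lower (SE 0.50, adjusted p = 0.115). Leaving out 1 mouse made 3 of these differences pass: Olfml2b in ACR7 without the mouse of CTR7 replicate 2 (1.30, adjusted p = 0.0269) or replicate 3 (1.40, adjusted p = 0.0451), Tnfrsf25 in RUN7 without the mouse of CTR7 replicate 2 (-1.91, adjusted p = 0.0217) and Tnfrsf25 in RUN28 without the mouse of DG CTR28 replicate 2 (1.72, adjusted p = 0.036). Among the 8 fits that leave out 1 mouse, adjusted p reached 0.284 for Olfml2b in ACR7. For Tnfrsf25 it reached 0.431 in RUN7 and 0.275 in RUN28. The intervals were wide, for example 0.37 to 2.32 for Tnfrsf25 in RUN28.

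Plekha2, an adaptor that binds a phosphoinositide made after PI3-kinase activity, and Pcdh20 were called in no comparison of either tissue. Plekha2 levels ran from 9.43 over a median of 10.64 to 11.70 in the DG and from 7.84 over 8.29 to 9.41 in the LEC. Pcdh20 levels ran from 10.59 over a median of 11.68 to 12.36 in the DG and from 8.78 over 9.41 to 9.78 in the LEC. In LEC of ACR7 mice Plekha2 stood at 7.93, 8.46 and 8.30, against 8.73, 9.29 and 8.39 in CTR7 mice, a difference of -0.57 with overlap (adjusted p = 0.238).

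Within DG groups the 7 genes went up and down together from array to array. After subtraction of each group's mean, the 21 pairs of genes had Pearson r between 0.045 and 0.878 with a median of 0.571 over the 26 arrays. The highest r was that of Plekha2 with Tnfrsf25, and Prox1 followed C1ql2 at 0.82. Much of this rests on 1 array. Without ACR14 replicate 3 the median over 25 arrays was 0.334, the range -0.433 to 0.835, and 6 in place of 15 pairs exceeded 0.5. Plekha2 and Tnfrsf25 remained the highest pair, and C1ql2 and Pkp2 were the lowest pair either way. In the LEC the median over 28 arrays was 0.164, with 1 pair above 0.5, Prox1 with Olfml2b at 0.691.

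Genes most like the mean of the 7 over DG arrays were Spsb1 and Slc35f3, both at 0.921, Golm1 at 0.907, Cacna1h at 0.906 and Lhfpl2 at 0.894. Without ACR14 replicate 3 these values were 0.863, 0.875, 0.862, 0.862 and 0.794. List means take in every gene with a probe, detected or not. Of the lists, the other granule cell and mossy fibre genes followed the 7 most closely, at 0.864, or 0.804 without that array. Of these genes 9 had a probe, and a DG array detected 2 to 5 of them. Newborn granule cell genes, 6 with a probe and 2 to 3 detected on a DG array, gave 0.655 and 0.468. Interneuron genes ran the other way at -0.622 and -0.677, oligodendrocyte genes at -0.621 and -0.598, and thalamus genes at -0.618 and -0.616. Choroid plexus genes gave -0.461 with the array and -0.162 without it. All points share an array each, so that its scaling and its dissection enter both sides, and these correlations describe the arrays only.

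**Figure D4:**
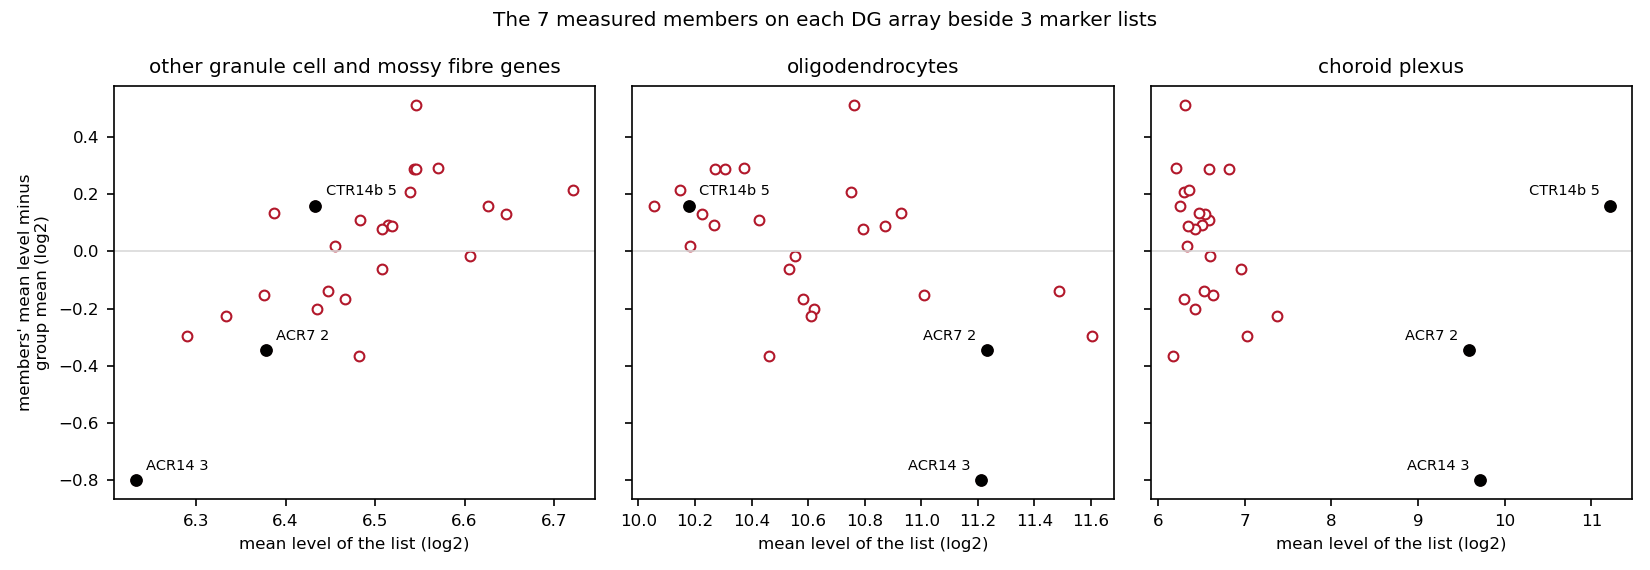
Deviation of the mean level of the 7 genes from the group mean (log2 units, vertical axis) on each of 26 DG arrays, against the mean level of 3 gene lists (log2 units, horizontal axes): other granule cell and mossy fibre genes, oligodendrocytes, and choroid plexus. Black points are the 3 arrays rich in choroid plexus genes, and the lowest point, at -0.80, is ACR14 replicate 3.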

How the data were processed

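RNA of DG and LEC was hybridised by the authors to Illumina MouseRef-8 arrays and extracted with GenomeStudio 1.6.0, named in the submitters' processing notes. The deposited intensity values carry no normalization between arrays, and whether background was subtracted is not given in the sources used here; the lowest value of an array lay between 35.3 and 50.4. The authors deposited a detection p-value for each probe. They also deposited a score, the log intensity less the array mean over the array SD, which was recomputed to within 5e-10.

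Intensities were taken to log2, z-transformed array by array following the methods, multiplied by the mean SD of 54 arrays (1.7994) and shifted by the mean of array means (7.1978). The scaling divides by array SDs of 1.5719 to 2.1388. Genes detected (p of 0.02 or less) on all arrays of 1 or more groups entered, with the probe of highest mean for each gene. Gene names are those of the platform annotation, of which 23971 of 23978 matched RefSeq (GRCm38.p6) and 8 were updated.

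In R 4.3.3, limma 3.58.1 (lmFit, eBayes) fitted each tissue as 1 model of group means, with Benjamini-Hochberg adjustment over all genes tested and calls at an adjusted p under 0.05. Tissues were joined with duplicateCorrelation on the mouse (statmod 1.5.0, consensus correlation -0.0601), and files were read with data.table (version 1.17.8). Each array is 1 mouse, so p-values measure the spread between mice. Replicate numbers mark different mice across groups and do not pair samples. The script was tested on simulated data. The members and lists were chosen with earlier results of these data known. Members were named with their probes, and of other genes the list members called beside a member's result and the 5 genes most like the members. The lists cover the members' partners, granule cells, other neurons, glia, endothelium, choroid plexus and neighbouring regions; in DG 0 list genes outside the members were called in ACR7, ACR14, RUN14 or RUN28, 2 in RUN7, and in LEC 2 in ACR7, 2 in RUN7, 0 at 14 days and 6 in RUN28. In CTR28 against CTR7 they were 5 in DG and 16 in LEC.

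Alternatives were quantile normalization, neqc (offset 16), the deposited scores on the same scale, no detection filter, a limit of 0.01 and every probe on its own. Others were only the groups compared, a replicate block and leaving out each array. For days 7 and 14 the selection of the methods (z-ratio of 1.5, false discovery rate of 30%) was added. ACR14 and RUN14 were also set against the controls of the other set and against all controls of day 14. Leaving out the choroid-rich arrays was chosen after seeing the data.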

Additional observations from a re-analysis of the deposited data

Results flagged for a closer look

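Olfml2b in LEC CTR28 had 1 array apart from the rest. Replicate 3 stood at 6.49 and the other arrays at 6.79, 6.81 and 6.82, and its gap took 0.905 of the range of the group, above the Dixon limit for 4 samples. Only LEC CTR28 has enough arrays for this check. It was made there for all 12 probes of the members, detected or not, and chance marks about 1 in 20 such tests.

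Some effects had opposite signs in the DG and the LEC in every treated array. This was looked for in the 7 measured genes only, so the share of all genes that would meet it is not known. For C1ql2 the DG effect of ACR7 lay 1.33 below that of the LEC as a difference of group means (-1.33, adjusted p = 0.213 in the joint limma model), and for RUN7 the gap was -0.74 (adjusted p = 0.492). For Olfml2b the gap was 1.19 in ACR7 (adjusted p = 0.0747) and -0.76 in ACR14 (adjusted p = 0.811). For Pkp2 it was -1.01 in ACR14 (adjusted p = 0.811). None of these differences passed, and the signs were noticed in the same arrays that the test used. The C1ql2 gaps include LEC CTR7 replicate 2, where C1ql2 was not detected; without that mouse the joint model gave -0.74 for ACR7 (adjusted p = 0.412).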

How the results depend on the processing

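Counts of called genes among the 7 were recomputed under each alternative, with the median tissue difference. Of these values 302 stayed as they were, within 1.5 times for counts, and 33 moved. The 302 include the fits on the deposited scores, which match the main levels and so could not differ. No difference changed sign past the threshold. In DG, ACR7 called 2 and RUN14 1 under the selection of the methods, and CTR28 against CTR7 called 2 with every probe on its own and 0 with only the groups compared. In LEC, ACR7 called 1 with quantile normalization, neqc, every probe or the methods' selection, ACR14 called 1 with that selection, RUN28 called 0 at a detection limit of 0.01, and CTR28 against CTR7 called 0 at that limit, with no filter or with only the groups compared.

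With the replicate block, CTR28 against CTR7 called 0 in DG and 0 in LEC, and RUN28 called 0 in LEC, and it changed no other count. Same-numbered arrays correlated at -0.348 to 0.4, so the numbers name mice and do not pair them. Leaving out 1 array, calls ranged from 0 to 1 for DG RUN7 (1 without CTR7 replicate 2), for DG CTR28 against CTR7 and for LEC ACR7 and RUN7 (1 without CTR7 replicate 3), and from 0 to 2 for LEC CTR28 against CTR7. Leaving out 1 mouse, the tissue difference called 0 to 1 for ACR7, RUN7 and RUN28.

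The median DG minus LEC difference was 3.05 with neqc in place of 2.66. Leaving out the choroid-rich arrays, chosen after seeing the data, changed 0 calls in the DG comparisons that hold such an array. The other DG comparisons were not refitted that way. Probes near background, such as LEC Tnfrsf25, give bounds only, and scaling by array SD can shift all levels of an array.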
